A study of Caenorhabditis elegans with 32 samples.

Results

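F19F10.3, pugs-8, F56D6.8, spig-6 and alh-2 are 5 C. elegans genes picked because their change on nicotinamide riboside (NR) differed between csa-1 mutant and wild-type worms. They are 5 of 25497 genes tested, and each was measured by 1 probe on every array. RNA from whole worms on day 7 of adulthood was hybridized to 1-colour Agilent C. elegans arrays, 32 in all. There were 8 groups of 4 arrays. N2 is the Bristol wild type, csa-1 carries the allele tm4539, csb-1 carries ok2335, and both alleles are present in the double mutant, labelled csa-1;csb-1. Each strain was kept on water as vehicle or on 500 µM NR, given from the L4 larval stage onwards. Both alleles were backcrossed to N2, each mutant is represented by 1 allele, and fluorodeoxyuridine, which blocks progeny, was used in the study's cultures. The array is of the whole animal, so fewer cells of a type and less RNA per cell cannot be told apart.

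CSA and CSB, the human counterparts of CSA-1 and CSB-1, act where RNA polymerase stalls at DNA damage and start transcription-coupled repair, and their loss causes Cockayne syndrome. NR is a form of vitamin B3 that cells turn into NAD+, the electron carrier that is also consumed by signalling enzymes. Of the 5 genes, alh-2 belongs to the aldehyde dehydrogenases, which oxidize aldehydes to acids with NAD+ or NADP+ as acceptor. F19F10.3, F56D6.8, pugs-8 and spig-6 are annotated as protein-coding, and no role is given for them here.

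Levels are Z-scores: the log2 intensity of a probe minus the mean of all gene spots of that array, divided by their SD, so that 0 is the array's average spot. To give a log2 change, a difference in Z-score was scaled by 3.74, the SD of log2 intensity averaged over the arrays. The 75th percentile of intensity ran from 565 to 3883 units over the 32 arrays, and between 46.9% and 78.4% of gene probes were well above background. The dimmest array of a group had a 75th percentile of 565 to 873 in the vehicle groups and 1338 to 1942 in the NR groups. The brightest had 1616 to 3231 and 1728 to 3883. The part of this in the changes on NR was not tested beyond the other scalings given below. The number of arrays limits the precision of every value. The 4 arrays of a group shared 1 slide that held no other group, so slide and group cannot be told apart. Nothing in the labels says that the arrays of a group came from separate cultures, and p-values then measure only the spread between these arrays. Sperm genes (40 of the msp, ssp and gsp families, 32 of them well above background on every array) were higher on NR in each strain, with mean log2 changes of 0.77 in N2, 0.82 in csa-1, 1.37 in csb-1 and 1.11 in the double mutant (0.72 in csa-1 without the array described next), with overlap of the 2 treatments in csa-1 alone, and their part in the results on the 5 genes was not tested. Genes of oocytes and embryos were well above background on every array (13 of 13), as were those of the intestine (5 of 5) and of yolk (5 of 5).

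On the array labelled csa-1 NR replicate 4, 1 csb-1 probe had a Z-score of -1.22, against -0.05 to 0.00 on the other 3 csa-1 NR arrays and -1.36 to -0.83 on the csb-1 NR arrays. Its csa-1 probe stood at 0.21, against -0.33 to -0.26 on the other 3 and 0.09 to 0.19 on the csb-1 NR arrays. That csa-1 probe did not separate csa-1 from N2 on vehicle (-0.62 to -0.01 against -0.44 to -0.002). Against the label, the csb-1 probe lay inside the range of the csb-1 NR arrays, and the csa-1 probe lay just above theirs. The members' changes in csa-1 are given with and without that array. The csb-1 gene has 7 probes, and the 1 above, chosen after its values were seen, separated the 4 groups with the csb-1 allele from the others (this array aside), while the other 6 did not. Whether it lies in the deleted stretch was not tested. Of the members, F56D6.8 stood at 1.30 there against 1.05 to 1.08 on the other 3, and 1.30 to 1.49 on the csb-1 NR arrays. For alh-2 the array read -1.19 against -0.77 to -0.60 on the other 3, and for spig-6 it read 0.38 against 0.14 to 0.26. F19F10.3 (0.73) and pugs-8 (0.21) lay inside the range of the other 3 arrays.

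The difference between the NR response of csa-1 and that of N2 is what chose the 5 genes, and it is given as a description only. It came to 1.94 log2 units for F19F10.3 (SE 0.30), 2.12 for pugs-8 (SE 0.32), 1.92 for F56D6.8 (SE 0.33) and 1.96 for spig-6 (SE 0.33), all towards a higher response in csa-1. For alh-2 it was -2.65 (SE 0.48), measured against N2 vehicle arrays on which its probe was not well above background. These were 5 of 10 genes called in that contrast, 0.0392% of all genes tested, at an adjusted p of at most 0.05. alh-2 ranked 8 by p, the lowest of the members. The last gene inside the threshold was clec-17 (-1.32) and the first outside was pud-3 (1.56). With the array labelled csa-1 NR replicate 4 left out, the differences were 1.89, 2.17, 1.70, 1.80 and -2.20 in the order of the genes above, and 13 genes were called, 8 of them shared with the 10. Leaving out N2 vehicle replicate 3 raised the count to 334, all 10 included, and leaving out N2 vehicle replicate 2 lowered it to 4. When only the 4 groups compared entered the fit, limma called 0 genes, with the same differences and with 1254 genes at an unadjusted p under 0.05.

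**Figure D1:**
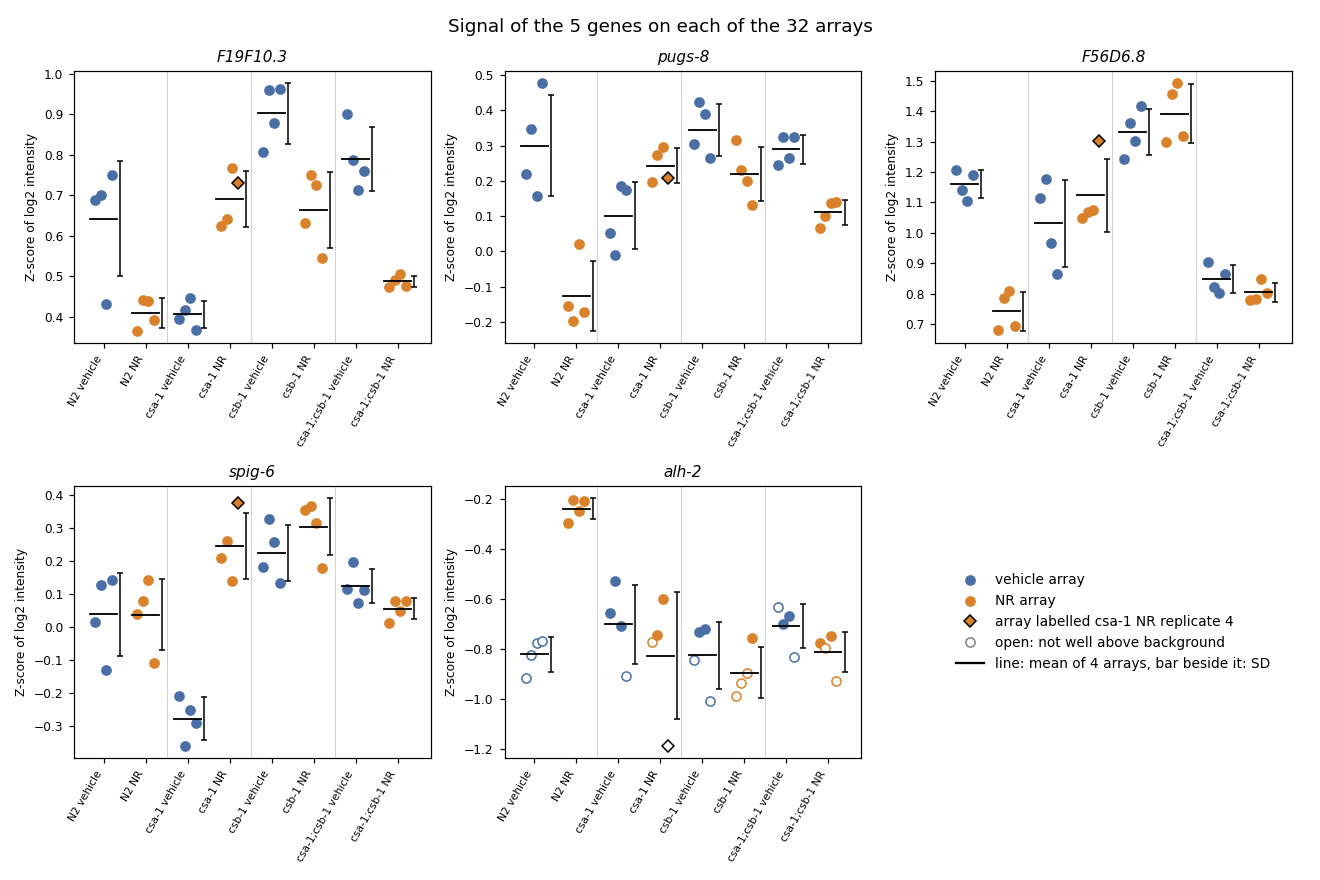
Z-score of log2 intensity of each gene (1 panel per gene, each with its own vertical scale) on each array, by strain and treatment, with 4 arrays a group, a line at the mean and a bar of 1 SD. F19F10.3 is low in N2 NR and in csa-1 vehicle, alh-2 is high in N2 NR alone, and the diamond marks the array labelled csa-1 NR replicate 4.

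The NR changes in N2 and csa-1 were called in opposite directions for F19F10.3 alone. pugs-8 changed sign as well, its csa-1 change not called, and for the other 3 genes the arrays of vehicle and NR overlapped in 1 of the strains. F19F10.3 moved down on NR in N2 and up in csa-1. In N2 it stood at 0.69, 0.70, 0.43 and 0.75 on vehicle and at 0.37, 0.44, 0.44 and 0.39 on NR. The low vehicle array, replicate 3, lay inside the NR range and inside the csa-1 vehicle range, and the log2 change was -0.87 (SE 0.21). On that array C55A1.7 (-0.28), nlp-51 (0.28) and spig-5 (0.98), genes described below, also lay inside the csa-1 vehicle ranges and below the other N2 vehicle arrays. spig-6 (-0.13) lay above the csa-1 vehicle range. Whether the label of that array is right was not tested. In csa-1 the vehicle arrays read 0.39, 0.42, 0.45 and 0.37 and the NR arrays 0.62, 0.64, 0.77 and 0.73, a log2 change of 1.07 (SE 0.21), or 1.02 without the array labelled replicate 4. Vehicle and NR did not overlap in csa-1, and csa-1 vehicle (mean 0.41) was at the level of N2 on NR (mean 0.41).

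For pugs-8 and F56D6.8 the fall in N2 made up most of the difference. In N2, pugs-8 read 0.22, 0.35, 0.16 and 0.48 on vehicle and -0.15, -0.20, 0.02 and -0.17 on NR, a log2 change of -1.59 (SE 0.22). In csa-1 it read 0.05, -0.01, 0.19 and 0.17 on vehicle and 0.20, 0.27, 0.30 and 0.21 on NR, a log2 change of 0.53 (SE 0.22), or 0.58 without the array labelled replicate 4. With normexp background correction the pugs-8 changes were -1.05 in N2 (limma adjusted p = 1.65e-05) and 0.30 in csa-1. The N2 change was then not called, on a criterion other than p. The groups did not overlap in either strain, although the nearest csa-1 arrays of the 2 treatments read 0.19 and 0.20. F56D6.8 in N2 read 1.21, 1.14, 1.11 and 1.19 on vehicle and 0.68, 0.79, 0.81 and 0.69 on NR, a log2 change of -1.57 (SE 0.23). In csa-1 its vehicle arrays (1.12, 1.18, 0.97 and 0.86) and NR arrays (1.05, 1.07, 1.08 and 1.30) overlapped, and the log2 change of 0.35 (SE 0.23) was 0.12 without the array labelled replicate 4. No rise of F56D6.8 in csa-1 was thus seen beyond the spread of the arrays.

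For spig-6 the difference lay in csa-1 alone. In N2 it read 0.01, 0.13, -0.13 and 0.14 on vehicle and 0.04, 0.08, 0.14 and -0.11 on NR, ranges that coincide, with a log2 change of 0.00 (SE 0.23). In csa-1 it read -0.21, -0.36, -0.25 and -0.29 on vehicle and 0.21, 0.26, 0.14 and 0.38 on NR, a log2 change of 1.96 (SE 0.23), or 1.79 without the array labelled replicate 4. The csa-1 vehicle arrays were the lowest of the 32, below all 28 others, and 3 of 4 csa-1 NR arrays lay within the range of the csb-1 groups, the array labelled replicate 4 (0.38) being above it. With normexp background correction the csa-1 change was 1.01. Body wall muscle genes (4 measured) were lower on NR in csa-1, with a mean Z-score of 0.54 to 0.80 on vehicle, 0.47 to 0.53 on 3 NR arrays and 0.20 on the array labelled replicate 4 (a mean log2 change of -0.95, or -0.66 without it). Yolk genes had a mean log2 change of -0.99 (-0.81 without that array), with overlap of vehicle and NR. The part of either list in the csa-1 values of the 5 genes was not tested.

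The alh-2 difference lay in N2. On vehicle, N2 read -0.92, -0.83, -0.78 and -0.77, and the probe was not well above background on any of these 4 arrays. On NR it read -0.30, -0.21, -0.25 and -0.21, well above background on 4 of 4 arrays and higher than on every other array of the series. Set against a raised vehicle level, alh-2 was 2.25-fold higher on NR in N2. For each vehicle array that level was the higher of the probe's own level and the lowest level of any probe well above background. Its mean was compared with the mean of the NR arrays. The result is no firm minimum, since on N2 vehicle replicate 1 probes at Z-scores of -0.20 and -0.21 were not well above background either. On that array alh-2 read the array's floor, 5.16 log2 units. The 2.25-fold, 1.17 on the log2 scale, is for Z-scores of the processed signal: with normexp background correction the measured change was 0.68, and the difference between csa-1 and N2 was -0.76. In csa-1 it read -0.66, -0.53, -0.71 and -0.91 on vehicle and -0.77, -0.74, -0.60 and -1.19 on NR, overlapping ranges, with a log2 change of -0.47 (SE 0.34) that became -0.02 without the array labelled replicate 4. In all, 16 of 32 arrays had the probe well above background, and outside N2 on NR it was so on 3 of 4 arrays at most.

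A gene was called where it met all criteria of the study's methods, namely adjusted p no higher than 0.05, a Z-ratio (the change divided by the SD of all genes' changes) of 1.5 or more in either direction and a signal criterion, under which the compared groups average above 0. In N2 3 of the 5 were called, where 0.871% of all genes were, and 1 of 5 in csa-1, where 2.2% were. Vehicle and NR did not overlap for 3 of 5 in N2 (6.17% of all genes) and for 3 of 5 in csa-1 (9.89%). These counts come from the contrasts that chose the genes, and nothing is read from them. The alh-2 change in N2 and the spig-6 change in csa-1 failed the signal criterion alone, since their mean Z-scores were below 0. The N2 changes of F19F10.3, pugs-8 and F56D6.8 and the csa-1 change of F19F10.3 were not called when the arrays of that strain were fitted alone.

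**Figure D2:**
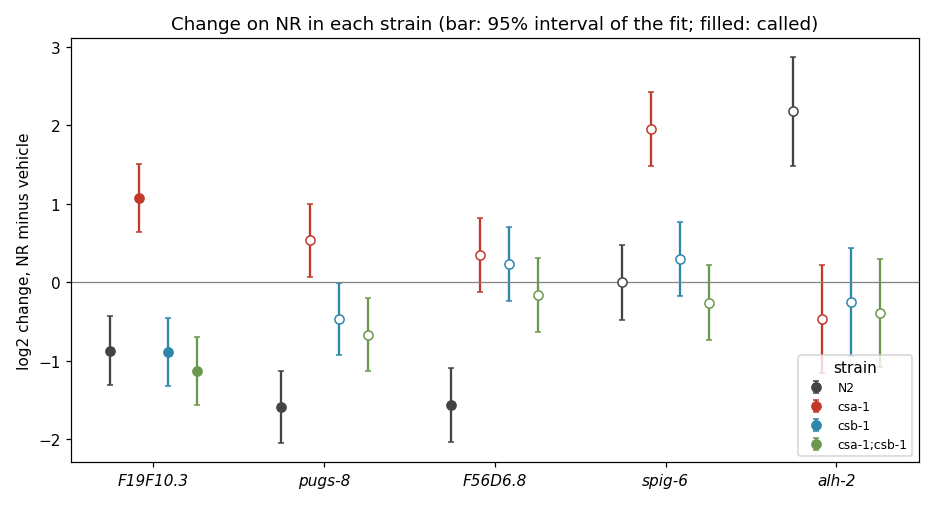
Log2 change on NR against vehicle (vertical axis) for each gene in N2, csa-1, csb-1 and the double mutant, with the 95% interval of the fit; filled points met all criteria for a call, and alh-2 in N2 is set against a vehicle group not well above background. F19F10.3 is above 0 in csa-1 (1.07) and below 0 in the other strains (-0.87, -0.89 and -1.13).

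The csb-1 and double mutant arrays were not in the contrast that chose the genes, although the fit over all arrays drew its spread from them as well, and there the NR response was tested. F19F10.3 fell on NR in both strains. In csb-1 it read 0.81, 0.96, 0.88 and 0.96 on vehicle and 0.63, 0.75, 0.73 and 0.55 on NR. No NR array reached the lowest vehicle array, and the log2 change was -0.89 (SE 0.21, 95% interval -1.33 to -0.46, limma adjusted p = 0.0126; exact permutation p = 0.029, two-sided, the smallest that 4 against 4 allows). It was 1 of 5 members called in csb-1, against 1.5% of all genes, and 1 of 5 without overlap, against 16.5% of all genes. The call was lost when csb-1 vehicle replicate 2 or 4 or csb-1 NR replicate 4 was left out, with log2 changes between -0.82 and -0.75, and in a fit of the csb-1 arrays alone (adjusted p = 0.0650).

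In the double mutant F19F10.3 read 0.90, 0.79, 0.71 and 0.76 on vehicle and 0.47, 0.49, 0.51 and 0.48 on NR. The 4 NR arrays had an SD of 0.015, and all were below every vehicle array. The log2 change was -1.13 (SE 0.21, 95% interval -1.57 to -0.70, limma adjusted p = 0.00205; exact permutation p = 0.029). It was called in 32 of 32 fits that left out 1 array, at adjusted p of 0.0150 or less. It was again 1 of 5 members called, against 2.28% of all genes. The sperm genes moved the other way in both strains: their mean Z-score ran from 0.61 to 0.70 on csb-1 vehicle and from 0.99 to 1.05 on csb-1 NR, and from 0.80 to 0.87 and from 1.12 to 1.15 in the double mutant. Yolk protein genes (5 vit genes measured) were also lower on NR in csb-1, with a mean log2 change of -0.83 and no overlap. The part of either in the F19F10.3 values was not tested.

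The other 4 genes were not called in either strain. pugs-8 read 0.30, 0.42, 0.39 and 0.26 on csb-1 vehicle and 0.32, 0.23, 0.20 and 0.13 on csb-1 NR, overlapping ranges with a log2 change of -0.47 (95% interval -0.93 to -0.01, adjusted p = 0.239). In the double mutant it read 0.24, 0.32, 0.27 and 0.32 on vehicle and 0.07, 0.10, 0.14 and 0.14 on NR. There the groups did not overlap, as for 19.8% of all genes, and the log2 change was -0.67 (95% interval -1.13 to -0.21, adjusted p = 0.0888). With arrays scaled to their 75th percentile or quantile-normalized it was called, at -0.85 (adjusted p = 0.0110) and -0.73 (adjusted p = 0.0253), and in csb-1 it was called with normexp background correction (-0.45, adjusted p = 0.0360).

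The NR response of F56D6.8 was small in both strains, with log2 changes of 0.23 in csb-1 (95% interval -0.25 to 0.70) and -0.17 in the double mutant (-0.64 to 0.31). A change of the size seen in N2, -1.57, lay outside both intervals. spig-6 changed by 0.29 in csb-1 (-0.18 to 0.77) and by -0.26 in the double mutant (-0.74 to 0.21), and the csa-1 value of 1.96 lay outside both intervals. alh-2 changed by -0.26 (-0.95 to 0.44) and -0.39 (-1.08 to 0.30), with the probe not well above background on 5 of 8 csb-1 arrays and 4 of 8 double mutant arrays. These intervals are of the change within a strain, and the responses of N2 and csa-1 were not tested against those of csb-1 or the double mutant. The NR responses of the double mutant and csb-1 differed by -0.56 to -0.14 log2 units over the 5 genes, with standard errors of 0.30 to 0.48, and none was called (0 of 5, against 0.102% of all genes; limma adjusted p of 0.534 to 0.942, and 0 of 5 at an unadjusted p under 0.05, against 11.7% of all genes).

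The levels of F56D6.8 separated the double mutant from csb-1 on either treatment. On vehicle it read 1.24, 1.36, 1.30 and 1.42 in csb-1 and 0.90, 0.82, 0.80 and 0.86 in the double mutant. On NR it read 1.30, 1.46, 1.49 and 1.32 in csb-1 and 0.78, 0.78, 0.85 and 0.80 in the double mutant. Every double mutant array was thus below every csb-1 array. The log2 difference was -1.81 on vehicle (SE 0.23, 95% interval -2.28 to -1.34, limma adjusted p = 0.000155) and -2.20 on NR (SE 0.23, 95% interval -2.68 to -1.73, 4.61-fold, limma adjusted p = 4.97e-06), with an exact permutation p of 0.029 for each. By p it ranked 3 of 25497 genes on vehicle and 1 on NR. On vehicle it was 1 of 5 members called (0.977% of all genes) and 1 of 5 without overlap (10.6%). Both differences were called in 32 of 32 fits without 1 array and under all 8 alternative settings. Over the 8 groups F56D6.8 was highest in the csb-1 groups (means 1.39 and 1.33) and lowest in N2 NR (0.74), double mutant NR (0.80) and double mutant vehicle (0.85), whose neighbouring ranges overlap.

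On NR spig-6 was also lower in the double mutant, at 0.01, 0.08, 0.05 and 0.08, than in csb-1, at 0.35, 0.37, 0.32 and 0.18. The groups did not overlap, as for 24.3% of all genes, and the log2 difference was -0.93 (SE 0.23, 95% interval -1.41 to -0.45, limma adjusted p = 0.0192; exact permutation p = 0.029). F56D6.8 and spig-6 were 2 of 5 members called in this comparison, against 2.62% of all genes. The spig-6 call was lost without any 1 of csb-1 NR replicates 1, 2 and 3 or double mutant NR replicates 1 and 3 (adjusted p up to 0.0805). With normexp background correction the difference was -0.61 (limma adjusted p = 0.00416), and the call was lost on a criterion other than p. F19F10.3 did not overlap either on NR, with a log2 difference of -0.66 (adjusted p = 0.0808), while pugs-8 differed by -0.41 (adjusted p = 0.397) and alh-2 by 0.31 (adjusted p = 0.757). On vehicle the differences of these 4 genes ran from -0.42 to 0.44, with adjusted p of 0.257 or more. Body wall muscle genes (4 measured, 3 well above background on every array) were higher in the double mutant than in csb-1. Their mean Z-score ran from 0.64 to 0.76 against 0.38 to 0.46 on vehicle and from 0.73 to 0.75 against 0.31 to 0.46 on NR. Pharynx genes (5 measured) were also higher without overlap, by 0.56 and 0.69 log2 units, as were the sperm genes, by 0.66 and 0.40, and on NR alone those of hypodermis (0.40) and glia (0.49), and the part of these lists in the differences was not tested.

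F56D6.8 did not stand alone on its stretch of the genome. In the order of the RefSeq gene table, F56D6.9 and dct-8 are the protein-coding genes on either side of it, with 0 coding genes between. dct-8, named for control by the DAF-16 transcription factor, had the pattern most like F56D6.8 of 15546 genes compared, with a Pearson correlation of 0.91 over the 32 arrays (0.91 when the array labelled csa-1 NR replicate 4 was left out). It was followed by sedl-1, the worm sedlin gene of vesicle transport (0.89), and dct-7 (0.89), which lies on the same chromosome with 102 coding genes between. These correlations are over arrays that share groups and slides, and whether the probes share sequence was not tested. In the double mutant dct-8 ran from 0.75 to 0.82 on vehicle and from 0.87 to 0.93 on NR, against 1.22 to 1.43 and 1.40 to 1.55 in csb-1. The log2 differences were -2.09 and -2.06.

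F56D6.9 was lower in the double mutant as well. It ran from -0.04 to 0.15 on vehicle and from -0.23 to -0.17 on NR, against 0.38 to 0.46 and 0.24 to 0.28 in csb-1. The log2 differences of -1.26 (limma adjusted p = 0.000627) and -1.68 (adjusted p = 6.31e-06) were both called. On NR it fell by 2.30 in N2 (adjusted p = 2.31e-08) and also fell by 1.06 in csa-1 (adjusted p = 0.000858), where F56D6.8 and dct-8 changed by 0.35 and 0.61. With csa-1 NR replicate 4 left out the csa-1 changes of F56D6.9 and dct-8 were -1.06 and 0.36. In the double mutant it changed by -0.96 on NR (adjusted p = 0.00241), with a mean Z-score too low for a call. The dct-8 signal fell by 0.95 in N2. The array labelled csa-1 NR replicate 4 read 1.45 for dct-8, above the other csa-1 NR arrays, and 0.12 for F56D6.9, inside their range. Of the 13 other genes named after the F56D6 clone, 2 were called in N2 (0.871% of all genes) and 4 in the double mutant against csb-1 on NR (2.62%), where the C-type lectin genes clec-67 (1.48) and clec-69 (1.46) were higher. The median of the 13 in N2 was -0.23, against 0.00 for all genes.

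**Figure D3:**
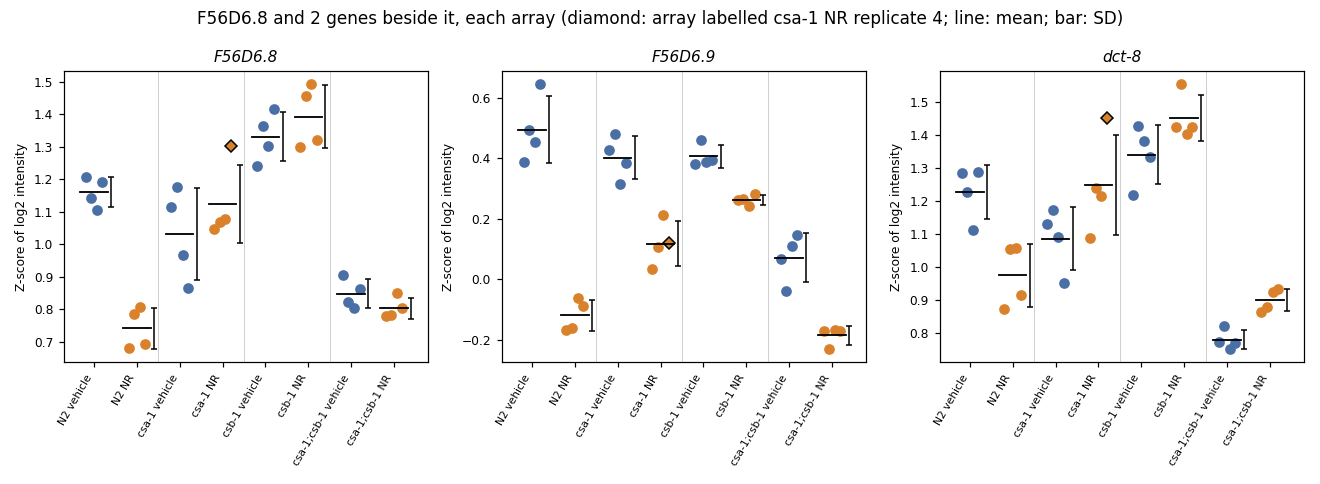
Z-scores of F56D6.8, F56D6.9 and dct-8 (1 panel each, own vertical scale) on each of the 32 arrays by strain and treatment, with a line at the mean of 4 arrays and a bar of 1 SD. All 3 are lower in the double mutant than in csb-1, and the diamond, the array labelled csa-1 NR replicate 4, reads 1.30 for F56D6.8 and 1.45 for dct-8.

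Several genes that share the name stem of spig-6 moved with it in csa-1. Of the 15 other spig genes measured, 3 were called higher on NR in csa-1 (spig-4, spig-5 and spig-9) and 0 lower, against 1.56% of all genes called higher, and spig-1 changed by 0.82 (adjusted p = 0.0326) with a Z-ratio just under 1.5. spig-5 averaged 0.93 ± 0.10 (SD, n = 4) on csa-1 vehicle and 1.43 ± 0.05 on csa-1 NR, without overlap, a log2 change of 1.88 (adjusted p = 0.000769). spig-4, its next coding gene, averaged 0.95 ± 0.12 and 1.41 ± 0.06 and changed by 1.72 (adjusted p = 0.000877). spig-9 changed by 1.25 (adjusted p = 0.0318). With csa-1 NR replicate 4 left out the changes were 1.94, 1.84 and 1.25, and the spig-9 call was lost (adjusted p = 0.0753). The median of the 15 was 0.33 in csa-1, against 0.02 for all genes, and -0.21 in N2, -0.07 in csb-1 and -0.27 in the double mutant.

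The difference between the responses of csa-1 and N2 was above 0 for 13 of these 15 genes, with a median of 0.73 against 0.00 for all genes, and none of them was called (0 of 15; at an adjusted p of at most 0.05, also 0). Since spig-6 was picked on that contrast with results known, and probes of related genes may share signal, this count describes the family and is not independent of the choice. In 2 strains in which spig-6 was not called, spig-20 had log2 changes on NR of -1.74 in N2 (adjusted p = 0.0396) and -1.68 in csb-1 (adjusted p = 0.0292), both called, with overlapping treatments in N2. In the double mutant spig-12 changed by -0.77 (adjusted p = 0.00860). These were the 1 of 15 called in csb-1 (1.5% of all genes) and the 1 of 15 called in the double mutant (2.28%).

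**Figure D4:**
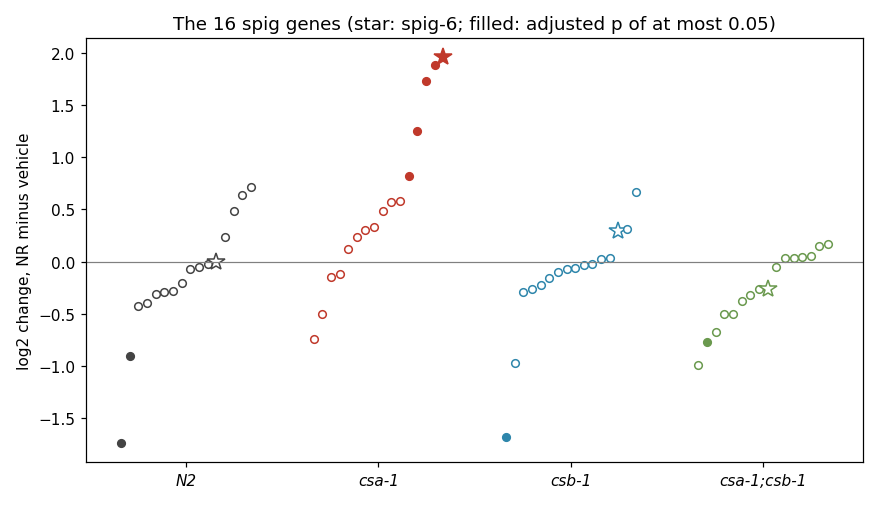
Log2 change on NR against vehicle (vertical axis) for the 16 spig genes in each strain, sorted within a strain; the star is spig-6 and filled points have an adjusted p of at most 0.05. In csa-1 the rising points include spig-6 (1.96), spig-5 (1.88), spig-4 (1.72) and spig-9 (1.25), which in csb-1 and the double mutant lie between -0.50 and 0.29.

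The relatives of alh-2 and pugs-8 were not called on NR. Of the 12 other aldehyde dehydrogenase genes, 0 were called on NR in any of the 4 strains, and the difference between csa-1 and N2 ran from -0.30 to 0.37 with a median of -0.03. In N2 the 12 changed by -0.62 to 0.44, while alh-2 was higher by 1.17 against the raised vehicle level, on Z-scores of the processed signal. With normexp background correction the alh-2 change was 0.68. In csa-1, alh-12 alone had an adjusted p of at most 0.05 (-0.69, adjusted p = 0.0232), under the Z-ratio for a call. With csa-1 NR replicate 4 left out alh-12 changed by -0.50 (adjusted p = 0.128). Between the double mutant and csb-1, alh-13 was higher on vehicle (0.93, adjusted p = 0.0269) and alh-12 on NR (0.78, adjusted p = 0.0123). Of the 10 other pugs genes 0 were called on NR in any strain, with medians between -0.24 and 0.13, and their differences between csa-1 and N2 ran from -1.10 (pugs-11) to 0.73, against 2.12 for pugs-8. The 10 other genes named after the F19F10 clone had no call on NR either.

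The genes with the pattern most like each remaining member were found in the same way. For F19F10.3 the closest were spex-2 (r = 0.88), C06E2.9 (r = 0.84) and srw-86, a serpentine receptor gene (r = 0.82). spex-2 changed on NR by -0.36 in N2, 0.92 in csa-1 (1.06 with replicate 4 on NR left out), -0.94 in csb-1 and -1.26 in the double mutant. For pugs-8 they were pud-3 (r = 0.82), F19F10.3 itself (r = 0.78) and spp-4, a saposin-like protein gene (r = 0.77). pud-3 changed by -2.03, -0.47 (-0.60 with that array left out), -1.22 and -0.73 in the same strains.

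For spig-6 the closest were the neuropeptide-like gene nlp-51 (r = 0.93), F40A3.4 (r = 0.89) and C55A1.7 (r = 0.89), which changed on NR in csa-1 by 1.34, 1.19 and 1.46 (1.24, 1.07 and 1.43 without the array labelled replicate 4) and in N2 by 0.13, 0.40 and -0.19. For alh-2 they were srlf-12 (r = 0.85), clx-1 (r = 0.81) and hsp-16.21, a gene of the small heat shock family (r = 0.77). All 3 were higher on NR in N2, by 1.91, 3.96 and 2.71 log2 units, and clx-1 and hsp-16.21 were themselves among the 10 genes called in the contrast that chose the members. The N2 vehicle arrays of clx-1 were spread, at -0.12, 0.01, 1.16 (replicate 3) and 0.24, against 1.32 to 1.48 on NR. These correlations are descriptions over arrays that share slides, since the genes were picked for likeness. Leaving out the array labelled csa-1 NR replicate 4, they ran from 0.77 to 0.92.

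Among the members, F19F10.3 and pugs-8 were closest to each other, with r = 0.78 over the 32 arrays and 0.82 over the 16 arrays of csb-1 and the double mutant, which were not in the contrast that chose the genes. Within groups, as deviations from the group means, the same pair had r = 0.40 over the 32 arrays and 0.12 over the 16. The largest value within groups was 0.62 over the 32, for pugs-8 and spig-6, and 0.85 over the 16, for F19F10.3 and F56D6.8. alh-2 ran against the other 4 over the 32 arrays (r of -0.65 to -0.34), which include those that chose it for an opposite difference. Over the 16 arrays it had r of 0.09 with F19F10.3, 0.08 with pugs-8, -0.47 with F56D6.8 and -0.33 with spig-6, and within groups its correlations over the 32 lay between -0.31 and -0.05. The orders of the group means also differed. F19F10.3 was highest on csb-1 vehicle (0.90) and lowest on csa-1 vehicle and N2 NR (both 0.41). pugs-8 was highest on csb-1 vehicle (0.34) and lowest in N2 NR (-0.13). spig-6 was highest on csb-1 NR (0.30) and lowest on csa-1 vehicle (-0.28), and alh-2 was highest in N2 NR (-0.24) and lowest on csb-1 NR (-0.90). Most neighbours in these orders overlap. The groups that did not were csa-1 vehicle for spig-6, N2 NR for alh-2, csb-1 vehicle against N2 vehicle for F56D6.8, and double mutant NR against N2 NR for F19F10.3.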

How the data were processed

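The authors labelled cRNA with Cy3, scanned each array and deposited its Feature Extraction output. The deposited intensity values used here are background-subtracted, floored where low and not normalized between arrays. The deposited table of scores equals, to within 0.005, the Z-score of each array's log signal over all spots. It holds 0 columns of other samples.

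Of 45220 spots, 1417 control spots were left out, and 289 of 43603 gene probes with an outlier flag on any array were dropped. Probes were named through the RefSeq table of WBcel235 (22730 of 28476 names matched). No coordinates are printed, since the array's design used an earlier assembly. Promoter and probe sequences were not used here. The brightest probe stood for a gene.

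Z-scores of log2 intensity were fitted with limma 3.58.1 (R 4.3.3; lmFit, eBayes) over all 32 arrays without covariates, with Benjamini-Hochberg adjustment over 25497 genes. Interactions were called at an adjusted p of 0.05 alone. The steps were tested on simulated data. All 4 labelled arrays of each group were used, although the methods speak of 3 biological replicates. The members, gene families and marker lists were chosen with earlier results of these data known. The genes named were the 5 members, csa-1 and csb-1, the 3 genes most correlated with each member (matched by name, well above background on at least 16 arrays) and, per family, up to 5 called genes. clec-17, clec-67, clec-69, alh-12, alh-13, pugs-11 and spig-1 were named after their values had been seen. The alternatives were 75th-percentile scaling, quantile normalization, normexp correction (offset 50, on median intensities because the files hold no mean foreground), the deposited scores, a filter on dim probes, the mean of a gene's probes, a replicate block, only the groups compared, and leaving out each array.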

Additional observations from a re-analysis of the deposited data

Results flagged for a closer look

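F56D6.8 on the array labelled csa-1 NR replicate 4 stood apart from its group: its Z-score was 1.30, against 1.05 to 1.08 on the other 3 arrays. The gap exceeded Dixon's critical value of 0.829 of the range. It was 1 of 40 group and gene combinations tested, and chance flags about 1 in 20. This is the array on which 1 csb-1 probe read against the label. Without it the F56D6.8 change on NR in csa-1 was 0.12 in place of 0.35.

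The NR responses of csa-1 and N2 differed in the interaction fit for all 5 genes, by 1.94 for F19F10.3, 2.12 for pugs-8, 1.92 for F56D6.8, 1.96 for spig-6 and -2.65 for alh-2 on the log2 scale. The genes were picked on this contrast, so these values carry no independent weight.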

How the results depend on the processing

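Of 320 values of the members under 8 alternative settings, 302 kept their direction and call status, 13 lost a call and 4 gained one. The 1 that reversed was the alh-2 response of the double mutant against csb-1 (0.053 with normexp). The NR response of csa-1 against N2 had 10 calls in all. It had 41 with quantile normalization, 47 with normexp, 22 with probes well above background on at least 4 arrays and 0 with only the groups compared, where the 5 members had adjusted p of 0.641 to 0.676. Fewer arrays entered such fits, which gave more calls on NR in csb-1 (427, against 382) and in the double mutant (752, against 582). With only the groups compared, calls on NR were 0 in N2 (222 with all arrays; 1966 genes at an unadjusted limma p under 0.05 in the smaller fit) and 62 in csa-1 (561, or 402 with csa-1 NR replicate 4 left out). With normexp they were 1366 in csa-1, 812 in csb-1 (382) and 1108 in the double mutant (582). The response of the double mutant against csb-1 had 26 calls, all lower. It had 561 with 75th-percentile scaling, 315 with quantile normalization, 523 with normexp, 83 with the dim filter, 11 with the replicate block and 832 with only the groups compared. The causes were not tested. In N2, 132 of 222 calls were higher, against 53 of 161 with 75th-percentile scaling, 82 of 196 with quantile normalization and 78 of 219 with normexp. Scaling to the 75th percentile moved the median NR change of all genes by -0.15 to -0.12. alh-2 was then not called in the contrast that chose it (-2.51, adjusted p = 0.0892). Normexp shrank the csa-1 against N2 difference from 2.12 to 1.35 for pugs-8, 1.96 to 1.096 for spig-6 and -2.65 to -0.76 for alh-2.

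Leaving out 1 array at a time gave 4 to 334 calls for the response of csa-1 against N2, 101 to 276 for NR in N2, 349 to 680 in csa-1, 245 to 487 in csb-1, 354 to 682 in the double mutant and 3 to 259 for the double mutant against csb-1. The extremes for csa-1 against N2 came without N2 vehicle replicates 2 and 3. Of 1280 member values, 1251 kept direction and call status and 6 reversed: spig-6 on NR in N2 ran from -0.21 to 0.18, and the alh-2 response of the double mutant against csb-1 from -0.29 to 0.090. F19F10.3 in N2 lost its call in 7 of these fits. Arrays with the same replicate number did not deviate together (16 pairs, r of -0.28 to 0.26, 5 over 0.1, 6 arrays closest to their own number), so the numbers were not taken as pairs, and the replicate block changed no member's call. alh-2, not well above background on 16 of 32 arrays, is limited by its signal.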
